A study of Mus musculus with 38 samples.

Results

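7 genes of the cell division cycle were followed through mouse soleus, a slow postural leg muscle, by the activity of their promoters: Birc5, Ccna2, Rrm2, Mki67, Top2a, Cdk1 and Ccnb1. A gene counted as measured where a promoter cluster had its highest peak within 500 bp of an annotated 5′ end of the gene, on the same strand. Of these 7 genes, 3 (Birc5, Ccna2 and Rrm2) had a cluster, 1 each, among the 10819 clusters of the table. Mki67, Top2a, Cdk1 and Ccnb1 had none. The list was chosen by measured TPM levels, after high values of such genes had been seen in the mice kept warm (HiT), so every comparison with HiT below is a description without a test. The tests concern the other groups of the first experiment and a second experiment without HiT mice. Low torpor (Mid) levels may have been part of the choice, so the first experiment's comparisons with Mid are not fully free of it either.

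A dividing cell copies its DNA in S phase and separates the copies in mitosis, and the genes needed for each step are transcribed in step with the cycle. Resting cells keep most of them off, largely through E2F and RB-family proteins and the MuvB complex at their promoters. Muscle fibers are post-mitotic, and in adult muscle the cells able to divide are the satellite cells and the interstitial, vascular and immune cells between the fibers. In bulk muscle RNA, fewer cells of a type and less RNA per cell cannot be told apart.

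Each of the 38 libraries came from 1 male young adult C57BL/6J mouse, and promoter activity in the soleus was read by nAnT-iCAGE, which sequences the capped 5′ ends of RNA without amplification. The first experiment held 28 libraries. Pre mice (4) ate freely and were sampled on day 1. Mid mice (8) had their food removed at a low ambient temperature and were sampled on day 2. The study's text has each of them either torpid or between bouts of torpor at sampling. Post mice (4) were sampled on day 3 after the food had been returned. The further groups, sampled on day 2, bear on food and temperature: HiT mice (4) were held at a high ambient temperature, Fed mice (4) kept their food at the low temperature, and Dep mice (4) were fasted and kept out of torpor by touching. The second experiment repeated Pre (2 libraries), Mid (5) and Post (3). The sources differ on food: the study's text has the HiT mice fasted, whereas the design text of the record has them with food, and the Fed libraries carry a condition label of starvation. The study's text was followed here.

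Levels are in TPM, tags of a cluster scaled to a fixed total of mapped tags per library. A tag marks 1 captured 5′ end, so transcript length does not enter. The libraries of the first experiment held 18257657 to 39176649 tags in clusters, where 1 tag was worth 0.0242 to 0.0514 TPM, and those of the second held 9359994 to 20914855 tags, where 1 tag was worth 0.0447 to 0.101 TPM. All 11 fiber genes used to check the tissue had a cluster, with summed levels of 14260 to 32988 TPM in the first experiment and 62714 to 87126 TPM in the second. Levels were not compared between the experiments. A pair of libraries stood apart from their groups in the genes described here, Dep 1 and Mid 11. Most results that rest on them are given with and without them, but the likeness of other clusters was not computed without them.

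All 3 clusters covered an annotated transcript start (mm10, GENCODE vM21). The Birc5 cluster (ENSMUSG00000017716.15) spanned 216 bp, chr11:117849188-117849403 on the plus strand, with its highest peak at 117849318, 1 bp before an annotated 5′ end. Ccna2 (ENSMUSG00000027715.9) had a cluster of 201 bp on the minus strand, chr3:36571827-36572027, with the peak at 36571969, 5 bp before an annotated 5′ end. The Rrm2 cluster (ENSMUSG00000020649.11), 172 bp long at chr12:24708211-24708382 on the plus strand, peaked at 24708281, 40 bp into the annotated first exon. The 4 absent genes had no cluster on their own strand anywhere within the gene, and the nearest one outside lay 41945 bp away for Ccnb1, 206282 bp for Top2a, 1216348 bp for Cdk1 and 1491261 bp for Mki67.

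RefSeq promoter windows (GRCm38.p6) were at hand for 6 of the 7 genes. For the 2 of these that had a cluster, 180 bases are shown, from 150 before the RefSeq start to 30 after, on the plus strand, with the bases that lay within the measured cluster in capitals. They show where transcription began relative to the annotated start. For Birc5 the window is chr11:117849087-117849266, and the highest peak lay 52 bp beyond its end, 81 bp past the RefSeq start. For Rrm2 it is chr12:24708104-24708283, and the highest peak lay inside it, 27 bp past the RefSeq start.
Birc5: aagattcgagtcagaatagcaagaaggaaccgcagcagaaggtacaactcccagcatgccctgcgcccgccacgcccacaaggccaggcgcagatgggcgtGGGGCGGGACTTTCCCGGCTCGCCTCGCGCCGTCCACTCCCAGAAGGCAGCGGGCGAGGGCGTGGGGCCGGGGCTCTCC
Rrm2: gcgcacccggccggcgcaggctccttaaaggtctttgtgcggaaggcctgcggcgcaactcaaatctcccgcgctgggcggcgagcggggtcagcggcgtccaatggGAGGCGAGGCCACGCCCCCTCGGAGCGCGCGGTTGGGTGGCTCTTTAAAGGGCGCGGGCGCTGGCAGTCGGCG

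The motifs below, described as bound at cell cycle promoters or as general promoter elements, were searched on both strands of the 300-base RefSeq windows. The CCAAT box, bound by NF-Y, was present in 5 of the 6 windows (all but Birc5), against 37.4% of 32851 windows. The letters TTTGAA, which form the cell cycle genes homology region read by MuvB complexes, were in the windows of Mki67, Top2a and Cdk1, against 17.9% of all windows. The share of windows is a description and names no bound site. Of the E2F-type cores, TTGGCGC was in Mki67, Cdk1 and Ccnb1 (2.45% of all windows) and TTCCCGC in none of the 6 (4.6%). The complement of TTGGCGC can share letters with CCAAT, so those counts are not independent. TATAAA was in none of the 6 windows (13.6%). The Birc5 window held none of the motifs, but most of its cluster and its highest peak lay outside the window.

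Entry into the table limits what can be read from these genes. Every cluster listed reached 10 TPM in at least 1 library, and Birc5 (12.4 TPM) and Ccna2 (10.6 TPM) did so in HiT 1 alone. Their next highest libraries were both HiT 2, at 8.80 and 7.80 TPM. These 2 genes are therefore listed only through the HiT group and had to be high there, and Ccna2 was among the clusters just inside the limit. Rrm2 reached 10 TPM in 4 libraries, Mid 3, Mid 8, Mid 11 and HiT 1, with its maximum of 12.4 TPM in Mid 11. A gene without a cluster may have been transcribed below that level in every library.

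Birc5 encodes survivin, a subunit of the chromosomal passenger complex that corrects chromosome attachments in mitosis and is needed for cytokinesis. Its level was 12.4, 8.80, 4.23 and 5.84 TPM in HiT 1 to 4 (392, 264, 133 and 179 tags). In the other 24 libraries of the first experiment it was between 0 and 1.86 TPM, with a median of 0.126 TPM. The lowest HiT library thus lay above each of these 24. The fitted log2 difference was 5.68 from Mid, 6.40 from Pre, 6.63 from Post, 4.43 from Fed and 3.71 from Dep.

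Ccna2 encodes cyclin A2, the CDK partner of S phase and of entry into mitosis. It stood at 10.6, 7.80, 3.34 and 5.84 TPM in HiT 1 to 4 (333, 234, 105 and 179 tags). Elsewhere in the first experiment it ranged from 0 to 1.56 TPM with a median of 0.12 TPM, and again none of these libraries reached the lowest HiT library. The fitted log2 difference was 4.86 from Mid, 6.21 from Pre, 6.59 from Post, 4.44 from Fed and 3.83 from Dep. All of these comparisons share the 4 HiT libraries. Among the 10776 clusters tested in the first experiment, 3.65% had every HiT library above every Mid library, 3.88% above every Pre, 3.93% above every Fed, 4.34% above every Post and 4.23% above every Dep library, and 1.43% had every HiT library above each of the other 24.

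Rrm2, the regulatory subunit of ribonucleotide reductase that supplies deoxynucleotides in S phase, had another pattern. It was at 11.3, 9.67, 5.72 and 6.59 TPM in HiT 1 to 4 (355, 290, 180 and 202 tags). These values were above every Pre, Post and Fed library, as were 3.88%, 4.34% and 3.93% of clusters, and overlapped the Mid and Dep libraries. The fitted log2 difference of HiT was 0.38 from Mid, 0.76 from Dep, 1.29 from Post, 1.67 from Pre and 1.89 from Fed. Rrm2 was also the member transcribed in every library, with at least 17 tags in each.

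**Figure D1:**
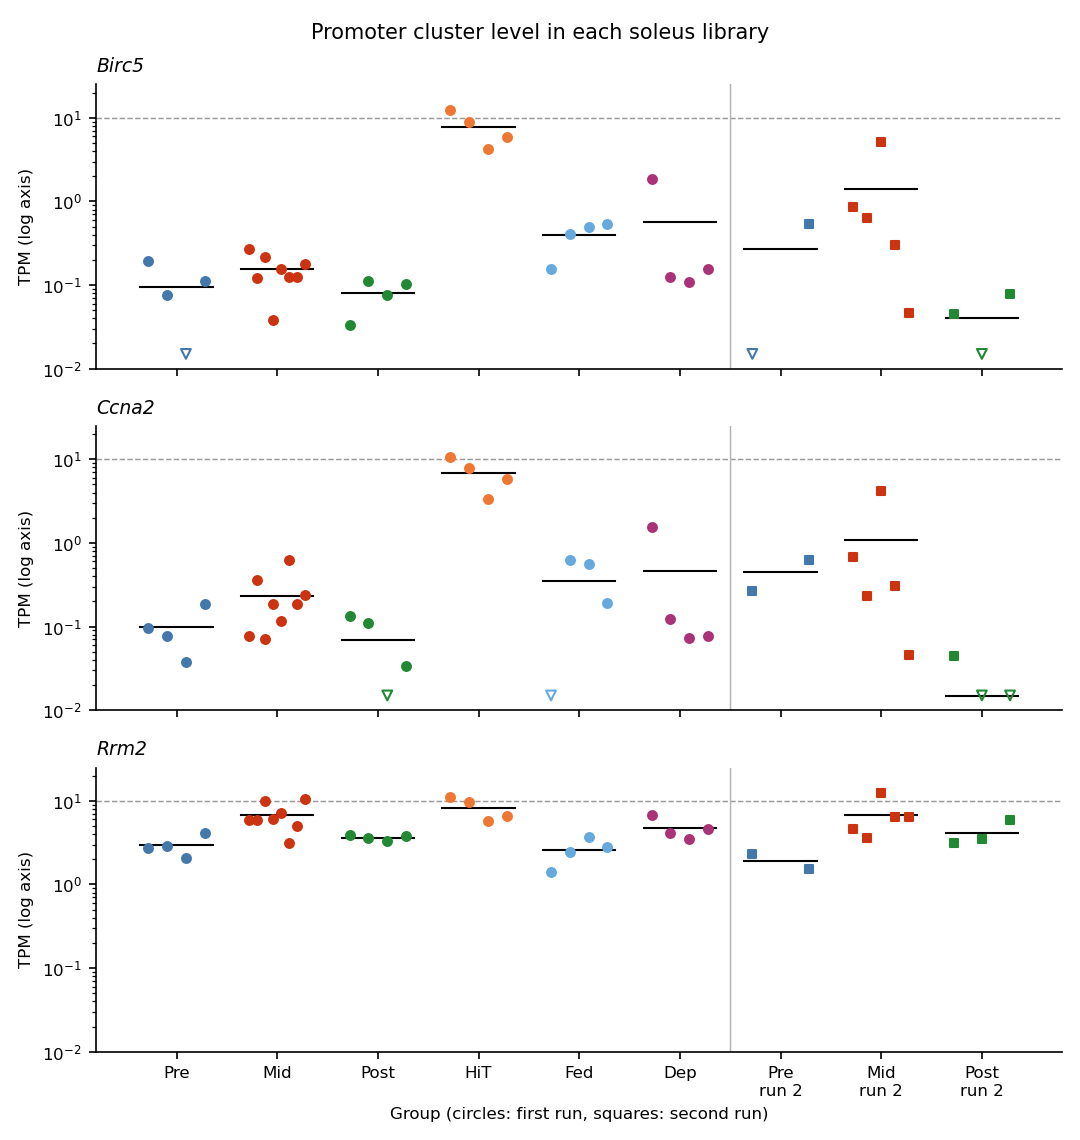
Level of the Birc5, Ccna2 and Rrm2 clusters in each of 38 soleus libraries (TPM, log axis). Circles are the first experiment and squares the second, black bars are group means, open triangles mark libraries with 0 tags, and the dashed line is 10 TPM, the level every listed cluster reaches somewhere. Birc5 and Ccna2 are highest in the 4 HiT libraries of the first experiment, with Dep 1 next, and in Mid 11 of the second, whereas Rrm2 is present throughout.

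Birc5 and Ccna2 were close to each other in the libraries that had many tags of either. The ratio of Birc5 to Ccna2 tags was between 1 and 1.27 in the 4 HiT libraries, 1.19 in Dep 1 and 1.24 in Mid 11. HiT 1 had the most tags of all 3 genes and HiT 3 the fewest. Relative to Rrm2, Birc5 ran at 0.739 to 1.104 tags per Rrm2 tag in HiT, at 0.272 in Dep 1 and at 0.414 in Mid 11, but at 0.00617 to 0.0449 in the 8 Mid libraries of the first experiment. So Birc5 and Rrm2 were almost level in HiT, while in Mid Rrm2 was high with little Birc5. On the log2(TPM + 0.1) scale, Pearson's r between Birc5 and Ccna2 was 0.93 over the 28 libraries of the first experiment and 0.666 over the 24 without HiT. It was 0.445 when Dep 1 was left out as well. In the 10 libraries of the second experiment it was 0.9, and 0.77 without Mid 11. With Rrm2, r was 0.514 for Birc5 and 0.538 for Ccna2 over the 28 libraries, and 0.193 and 0.259 without HiT. These values are across libraries that share groups and depth, and describe the data only.

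**Figure D2:**
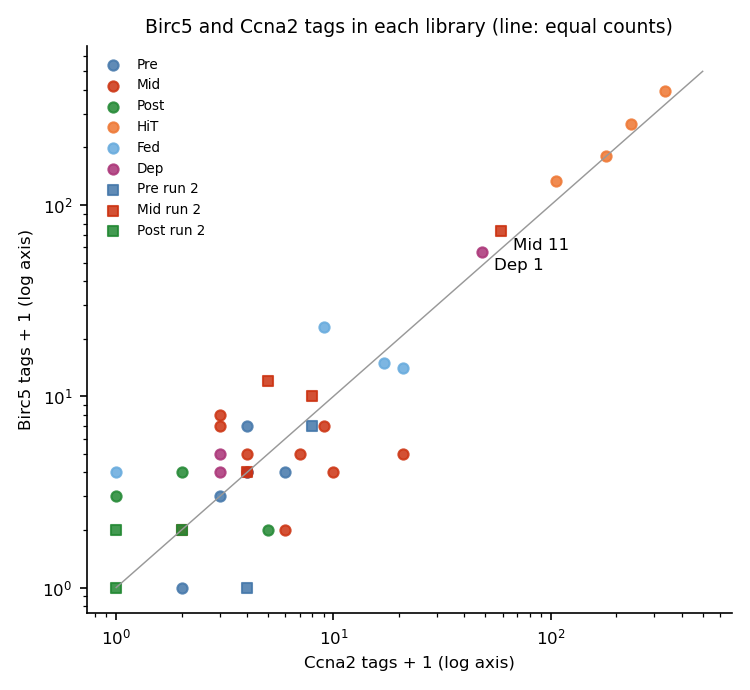
Tags of Birc5 (vertical) against tags of Ccna2 (horizontal), both plus 1 on log axes, with 1 point per library and a line of equal counts. The 4 HiT libraries, Mid 11 and Dep 1 lie near the line, and the remaining libraries sit at 22 tags or fewer of either gene.

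Whether the genes moved over fasting-induced torpor, in which fasting and torpor come together, was asked with Pre, Mid and Post. Rrm2 was higher in Mid than in Pre. In the first experiment it stood at 2.74, 2.89, 2.07 and 4.10 TPM in Pre 1 to 4, and in Mid at a lowest value of 3.17, a median of 6.04 and a highest value of 10.4 TPM (n = 8). Only Mid 6, the lowest, lay within the range of Pre. The log2 difference was 1.29 ± 0.28 (SE), a 2.45-fold rise (adjusted p = 0.00094, edgeR quasi-likelihood test). Of all clusters tested, 30.2% were called in this comparison and 15.4% were called higher.

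On day 3 Rrm2 was lower again. Post 1 to 4 had 3.88, 3.55, 3.29 and 3.78 TPM, below every Mid library except Mid 6. Post minus Mid was -0.91 ± 0.27 on the log2 scale (adjusted p = 0.0112, edgeR quasi-likelihood test), where 35% of clusters were called and 17.5% were called lower. Post minus Pre was 0.38 ± 0.31 (adjusted p = 0.663) against 1.85% of clusters called. The first 2 of these comparisons share the Mid libraries.

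The second experiment gave Rrm2 values of 2.31 and 1.52 TPM in its 2 Pre libraries and of 4.63, 3.63, 12.4, 6.34 and 6.40 TPM in Mid 9 to 13. All 5 Mid libraries lay above both Pre libraries, as did 11.8% of clusters. Mid minus Pre was 1.84 ± 0.49 on the log2 scale (adjusted p = 0.0393, edgeR quasi-likelihood test), with 9.74% of clusters called and 5.3% called higher. This call stood near the threshold. Without Pre 5, Pre 6, Mid 12 or Mid 13 the adjusted p was 0.136, 0.256, 0.0687 and 0.0678, and with the sequencing lane as a term it was 0.0679, while the log2 difference stayed between 1.54 and 2.20 across the libraries left out. On lane 3, which held both Pre libraries and Mid 9 to 12, the Mid libraries ran from 3.63 to 12.4 TPM. Post 5 to 7 had 3.17, 3.45 and 5.90 TPM, and Post minus Mid was -0.76 ± 0.38 (adjusted p = 0.212, 16.4% of clusters called). On lane 4, which held the 3 Post libraries and Mid 13, Mid 13 had 6.40 TPM and lay above them.

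Fed and Dep bear on food and torpor but do not fully set them apart. Fed mice differed from Mid in both, and Dep mice were also touched. Dep was not tested against Pre. Rrm2 was at 1.39, 2.44, 3.74 and 2.78 TPM in Fed 1 to 4, near Pre and below all Mid libraries but Mid 6. Fed minus Mid was -1.51 ± 0.28 on the log2 scale (adjusted p = 0.000188, edgeR quasi-likelihood test), with 35.2% of clusters called and 16.6% called lower. Fed minus Pre was -0.22 ± 0.31 (adjusted p = 0.708), with 11.2% of clusters called. In Dep 1 to 4 the level was 6.84, 4.08, 3.51 and 4.66 TPM, inside the range of Mid, and Dep minus Mid was -0.38 ± 0.26 (adjusted p = 0.435), with 2.03% of clusters called. By mean level in the first experiment Rrm2 ran HiT (8.31 TPM), Mid (6.73), Dep (4.77), Post (3.63), Pre (2.95) and Fed (2.59). Of the neighbours in this order, Mid and Dep, Post and Pre, and Pre and Fed did not differ past the threshold. Dep with Post was not tested, and HiT overlapped Mid.

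Birc5 and Ccna2 passed the threshold in none of the 8 comparisons without HiT under the edgeR quasi-likelihood test. At an unadjusted p below 0.05, and including Rrm2, the count of the 3 genes was 0 in Post minus Pre, 1 in Dep minus Mid, 1 in Fed minus Pre and 2 in Post minus Mid of the second experiment, the 4 comparisons with no call. In these, the edgeR likelihood ratio test called 0, 1, 0 and 2, and so did DESeq2. In most libraries outside HiT, other than Dep 1, Mid 11 and some Fed libraries, their levels were a few tags, near what a single library can resolve: 3 tags, the limit set by a count of 0, were worth 0.0725 to 0.154 TPM in the first experiment. These limits cover counting error only.

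In Pre 1 to 4 Birc5 had 6, 2, 0 and 3 tags and in Post 1 to 4 it had 1, 3, 2 and 3. Mid held 1 to 7 tags with a median of 4. The log2 difference was 0.72 ± 0.75 for Mid minus Pre (adjusted p = 0.497) and -0.95 ± 0.77 for Post minus Mid (adjusted p = 0.364). Ccna2 had 3, 2, 1 and 5 tags in Pre, 4, 3, 0 and 1 in Post and 2 to 20 in Mid, with the 20 in Mid 6. For Ccna2 the same differences were 1.35 ± 0.91 (adjusted p = 0.277) and -1.73 ± 0.96 (adjusted p = 0.169). At this depth no change of either gene with torpor was detectable in the first experiment.

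For Birc5 the Fed libraries lay high among those outside HiT, without passing the threshold. Fed 1 to 4 had 3, 13, 14 and 22 tags (0.154, 0.411, 0.494 and 0.531 TPM), so that Fed 2 to 4 lay above all Mid libraries and Fed 1 did not. The log2 difference from Mid was 1.25 ± 0.61 (adjusted p = 0.113), and 1.25 with an adjusted p of 0.0399 where only Fed and Mid entered the fit. From Pre it was 1.97 ± 0.78 (adjusted p = 0.098). Ccna2 in Fed had 0, 20, 16 and 8 tags, with a log2 difference of 0.42 ± 0.75 from Mid (adjusted p = 0.694) that became -0.12 without Fed 2.

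The Dep group was uneven. Birc5 had 56 tags (1.86 TPM) in Dep 1 and 3, 3 and 4 tags in Dep 2 to 4 (0.11 to 0.154 TPM). Ccna2 had 47 tags (1.56 TPM) in Dep 1 and 3, 2 and 2 tags in the others. Dep minus Mid was 1.97 ± 0.59 for Birc5 (adjusted p = 0.0761) and 1.03 ± 0.73 for Ccna2 (adjusted p = 0.453), and without Dep 1 these became -0.16 and -1.31. The Birc5 call of the likelihood ratio test and of DESeq2 in this comparison (adjusted p = 0.041 and 0.0393) thus rests on 1 library. Rrm2 was also highest in Dep 1 among the Dep libraries, by a smaller margin.

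Mid 11 did the same in the second experiment. Birc5 had 72 tags (5.13 TPM) in Mid 11 and 9, 11, 3 and 1 tags in Mid 9, 10, 12 and 13 (0.046 to 0.868 TPM). Ccna2 had 58 tags (4.14 TPM) there and 7, 4, 3 and 1 in the others. Against these, Pre 5 and 6 held 0 and 6 Birc5 tags, and Post 5 to 7 held 1, 0 and 1. For Ccna2, Pre had 3 and 7 tags and Post had 1, 0 and 0. By TPM every Post library of Ccna2 lay below every Mid library, as in 8.41% of clusters, but Mid 13 and Post 5 had 1 tag each and were parted by depth alone. Post minus Mid was -4.76 ± 1.64 for Birc5 (adjusted p = 0.0753) and -5.18 ± 1.69 for Ccna2 (adjusted p = 0.0623), and DESeq2 called both, at adjusted p of 0.00784 and 0.00525. With the lane as a term the edgeR values were -0.20 (adjusted p = 0.985) and -1.001 (adjusted p = 0.886): the 3 Post libraries shared lane 4 with Mid 13 alone, which had 1 tag of each gene, so that lane and group can hardly be told apart here. Without Mid 11 they were -3.18 and -3.37. The pooled ratio of Mid to Post was 29.7 for Birc5 (95% exact counting interval 8 to 249) and 9.18 without Mid 11 (2.28 to 80.1). For Ccna2 it was 45.2 (7.85 to 1810), and 11.5 without Mid 11 (1.76 to 483). Mid minus Pre was 2.36 ± 1.56 for Birc5 (adjusted p = 0.388) and 1.26 ± 1.35 for Ccna2 (adjusted p = 0.619), and without Mid 11 these were 0.79 and -0.54. The Birc5 value was 7.32 without Pre 6, which leaves a Pre library of 0 tags and is therefore no measure of size, and 1.39 without Pre 5.

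**Figure D3:**
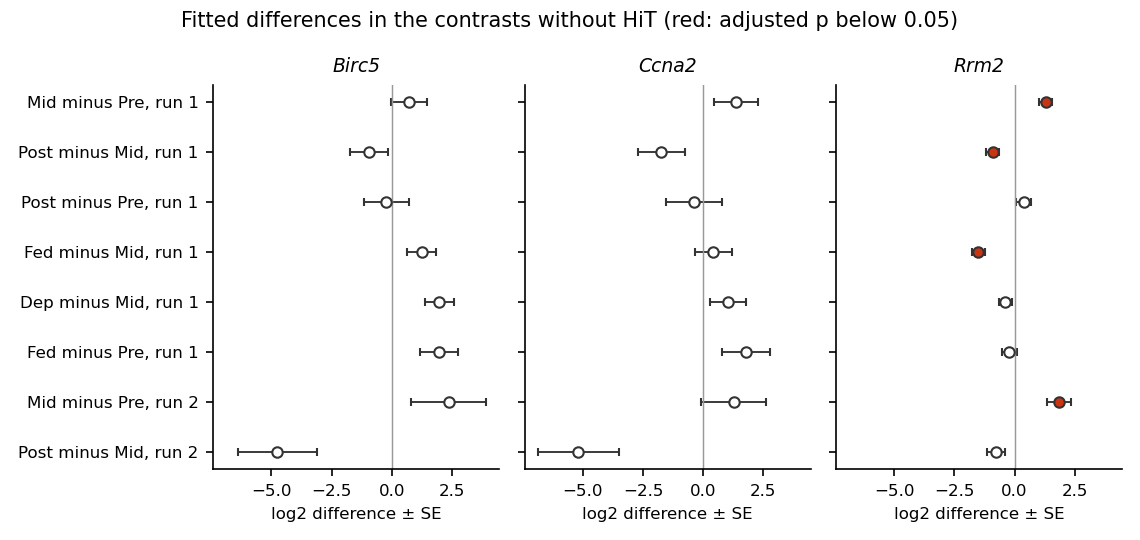
Fitted log2 differences (first group minus second, bars ± SE) of Birc5, Ccna2 and Rrm2 in the 8 comparisons without HiT libraries. Red points passed an adjusted p of 0.05 over all clusters (edgeR quasi-likelihood test): Rrm2 in Mid minus Pre of both experiments, in Post minus Mid and in Fed minus Mid of the first, and neither Birc5 nor Ccna2 in any.

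Some markers of other cells were also high in HiT. Of 18 macrophage genes 12 had a cluster, and 9 of those 12 were higher in every HiT library than in the other 24 libraries of the first experiment, against 1.43% of all clusters. Of the 9, Cd68, Mpeg1, Ctss, C1qa and Tyrobp reached 10 TPM in HiT libraries alone, as did Mrc1 among the rest. They had to be high in HiT to be listed, and the count and the sum carry that choice. The summed level of the 12 clusters was 597, 384, 194 and 256 TPM in HiT 1 to 4, against 48.9 to 130 TPM in the other 24. Lyz2, a lysozyme of macrophages and other myeloid cells, was at 67.0 to 211 TPM in HiT and at most 49.4 TPM elsewhere. Csf1r, the receptor for macrophage colony stimulating factor, was at 19.4 to 65.1 TPM in HiT and at most 24.9 TPM in the other 24. The complement gene C1qb was at 17.8 to 56.8 TPM in HiT and at most 13.3 TPM in the other 24. Adgre1, Cd14, Itgam, Fcgr1, Cx3cr1 and Ccr2 had no cluster. Of the satellite cell and myoblast list Pax7, Myf5, Calcr, Chrdl2 and Megf10 had none, and the sum of the rest was 2287 to 4478 TPM in HiT against 2640 to 4355 TPM. Nearly all of that sum was Des, desmin, which muscle fibers also express. Without Des it was 107 to 205 TPM in HiT against 96.6 to 268 TPM. Myog, the myogenic factor of differentiating myoblasts, is named after its values were seen: it was at 19.4 to 33.3 TPM in HiT and at most 8.90 TPM in the other 24. It was the only 1 of the 6 clusters of that list with every HiT library above the other 24, against 1.43% of all clusters. Myod1 was at 9.07 to 17.1 TPM in HiT against 1.62 to 27.4 TPM, Sdc4 at 69.5 to 137 against 58.0 to 249 TPM and Cdh15 at 9.27 to 17.8 against 10.4 to 18.1 TPM. For fibro-adipogenic progenitors the sum was 6180, 4051, 2309 and 3074 TPM in HiT 1 to 4, and 1469 to 3265 TPM in the other 24. Of the 10 clusters of that list 2, Col3a1 and Mfap5, were higher in every HiT library than in the other 24, against 1.43% of all clusters. For endothelial cells the sum was 307 to 525.7 against 344 to 567 TPM, for adipocytes 2248 to 3272 against 1532 to 4722 TPM, and for fibers 14260 to 24868 against 19917 to 32988 TPM. No T or B lymphocyte marker had a cluster. The part of other cells in the HiT levels of Birc5, Ccna2 and Rrm2 was not tested.

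In Dep 1 and Mid 11 other markers stood out. The macrophage sum was 127 TPM in Dep 1, against at most 95.3 TPM in the other Dep libraries. Of the 12 clusters 9 were highest there within Dep, against 12.6% of all clusters. In Mid 11 the macrophage sum was 93.9 TPM, inside the 62.6 to 127 TPM of the other Mid libraries of its experiment. There 2 of the 12 clusters were highest in Mid 11, against 31.5% of all clusters. The neutrophil sum, over 4 of 10 listed genes (S100a8, S100a9, Camp and Ngp), was 117 TPM in Dep 1 and at most 1.74 TPM in the other 27 libraries of the first experiment, the 4 HiT libraries included. In Mid 11 it was 7.92 TPM, against at most 1.11 TPM in the other 4 Mid libraries of the second experiment. There it came from Camp and Ngp, with S100a8 and S100a9 at 0, whereas all 4 were highest in Dep 1 within Dep. All 4 reached 10 TPM in Dep 1 alone, so they had to be high there to be listed, and the Dep 1 sum carries that choice. Slc4a1, the anion exchanger of red cells and their precursors, stood at 14.8 TPM in Dep 1 and at most 3.76 TPM elsewhere in the first experiment, with 0.261 to 0.8 TPM in HiT. It was 16.7 TPM in Mid 11 and at most 2.52 TPM in the rest of the second. Slc4a1 thus reached 10 TPM in Dep 1 and Mid 11 alone and had to be high in 1 of them to be listed. The whole erythroid sum, mostly globins, was 4105 TPM in Dep 1 against 1832 to 4044 TPM in the other Dep libraries, and 5521 TPM in Mid 11 against at most 2800 TPM in the other Mid libraries. The highest erythroid sum, 12643 TPM, was in Fed 2, where Slc4a1 was at most 3.76 TPM. Ltf, Retnlg, Ly6g, Mmp8, Csf3r and Cxcr2 of the neutrophil list, and Alas2, Klf1 and Epb42 of the erythroid list, had no cluster. The part of these cells in the Dep 1 and Mid 11 values was not tested.

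**Figure D4:**
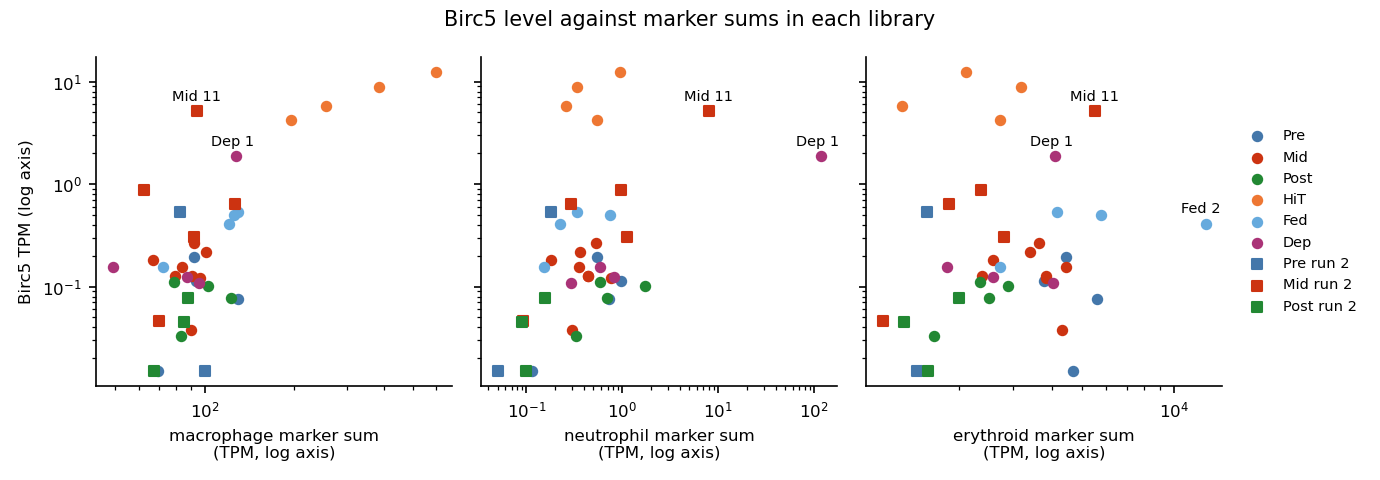
Birc5 level (TPM, log axis) against the summed level of macrophage, neutrophil and erythroid markers (TPM, log axes), with 1 point per library, circles for the first experiment and squares for the second. Values of 0 are drawn at the left or lower edge. The 4 HiT libraries hold the highest macrophage sums, 194 to 597 TPM, whereas Dep 1 and Mid 11 hold the highest neutrophil sums, 117 and 7.92 TPM. The neutrophil markers are listed only through Dep 1.

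Around these 7 genes, 6 lists of cell division genes held 172 other genes, of which 61 had 63 clusters. These lists were drawn up with earlier results of the same data known. The lists were thin where the mitotic genes are: 38 of 46 genes of the kinetochore, spindle and cytokinesis list had no cluster, among them Aurkb, Plk1, Bub1 and Cdca8. In Mid minus Pre of the first experiment 8 of the 63 clusters were called higher and 10 lower, against 30.2% of all clusters called. In Post minus Mid it was 10 and 10 (35%), in Fed minus Mid 9 and 9 (35.2%), in Dep minus Mid 1 and 0 (2.03%), in Fed minus Pre 2 and 3 (11.2%) and in Post minus Pre 0 and 3 (1.85%). The second experiment had 4 higher and 2 lower in Mid minus Pre (9.74%) and 3 and 5 in Post minus Mid (16.4%). The median log2 difference over the 63 was -0.011 in Mid minus Pre, against 0.00568 over all clusters. Scaling by library size alone, without TMM, left 12 of the 18 Mid minus Pre calls and 8 of the 20 Post minus Mid calls, and no call changed its sign.

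Among inhibitors and repressors of the cycle, Cdkn1a had the log2 difference in Mid minus Pre farthest from 0 of all 66 clusters of the lists. Cdkn1a encodes p21, an inhibitor of cyclin-dependent kinases. It rose from 54.6 ± 19.4 TPM in Pre (SD, n = 4) to 225 ± 63.8 TPM in Mid (n = 8), a log2 difference of 2.11 ± 0.26 (adjusted p = 1.54e-06). It fell to 23.8 ± 4.86 TPM in Post (log2 -3.26 ± 0.28, adjusted p = 4.93e-09). In the second experiment the differences were 2.31 ± 0.26 and -2.72 ± 0.22, both past the threshold. HiT was at 81.6 ± 37.6 TPM. Rbl2, the RB-family pocket protein p130 that holds cell cycle genes silent in resting cells, rose by 0.76 ± 0.11 in Mid (adjusted p = 8.09e-06), and Tfdp2, a partner of the E2F factors, rose by 1.06 ± 0.16 (adjusted p = 1.34e-05). Both fell again in Post, by 1.03 and 1.32 on the log2 scale. Tfdp1, the other E2F partner, fell by 0.26 in Mid (adjusted p = 0.00932, edgeR quasi-likelihood test). These 3 were the calls among the 9 clusters of the E2F, RB and MuvB list, against 30.2% of all clusters called. E2f6, a repressor E2F, was at 113 ± 32.6 TPM in Mid and 102 ± 11.8 TPM in Pre and was not called. Cdkn2c, the CDK4 and CDK6 inhibitor p18, went the other way and fell by 0.94 in Mid (adjusted p = 0.0293, edgeR quasi-likelihood test). Of the 5 CDK inhibitor clusters 1 was called higher and 1 lower, against the same 30.2%. In Mid minus Pre of the second experiment 1 of these 5 was called higher and 0 lower. Of the 9 E2F, RB and MuvB clusters 2 were called higher and 0 lower there, against 9.74% of all clusters called. The falls of Cdkn2c and Tfdp1 were thus not called again.

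Cyclins and replication genes were mixed. Of 10 cyclin and CDK clusters 1 rose and 4 fell in Mid, where 30.2% of all clusters were called. The one that rose was 1 of 2 clusters of Ccnd3, cyclin D3, with a log2 difference of 1.39 ± 0.22 (adjusted p = 2.95e-05) and mean levels of 2.36 TPM in Pre and 5.86 TPM in Mid. The other Ccnd3 cluster fell by 0.64 (adjusted p = 0.00236), from 8.84 to 5.35 TPM, so the start sites of the gene moved in opposite directions. Ccnd1, cyclin D1, fell by 0.99 (adjusted p = 0.000183) and Ccnh, the cyclin of the CDK-activating kinase, fell by 0.44 (adjusted p = 0.000231). In Post minus Mid 4 of the 10 clusters were called higher and 1 lower, against 35% of all clusters called. The rising Ccnd3 cluster, Ccnd1 and Ccnh moved back, by -1.52, 1.01 and 0.54. The other Ccnd3 cluster moved back as well, by 0.45 (adjusted p = 0.0245, edgeR quasi-likelihood test). Cdk4 was at 27.8 ± 2.98 TPM in Mid and 32.7 ± 2.32 TPM in Pre and was not called in Mid minus Pre. It was called higher in Post minus Mid, by 0.32 (adjusted p = 0.00088, edgeR quasi-likelihood test). Of 17 replication clusters other than Rrm2, 1 rose and 3 fell in Mid, against the same 30.2%. Orc2, a subunit of the origin recognition complex, rose by 0.28 (adjusted p = 0.00135) and Pola2, a subunit of DNA polymerase alpha, fell by 0.77 (adjusted p = 0.000459). Rrm2b, the reductase subunit that works outside S phase, was at 27.3 ± 4.55 TPM in Mid and 27.01 ± 1.56 TPM in Pre, with a log2 difference of 0.09 ± 0.07 that was not called. The difference between the 2 genes was not tested. In Mid minus Pre of the second experiment 1 of the 10 cyclin and CDK clusters was called higher and 1 lower. Of the 17 replication clusters 0 were called higher and 1 lower there, against 9.74% of all clusters called. Orc2 was at 34.07 TPM in Pre and 34.08 TPM in Mid of that experiment.

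Among chromosome genes 2 of 15 clusters rose in Mid and 1 fell, again against 30.2% of all clusters called. Hmgb2, a chromatin protein abundant in dividing cells, rose from 8.21 ± 0.33 to 15.5 ± 3.16 TPM, a log2 difference of 0.98 ± 0.17 (adjusted p = 7.02e-05), and fell by 0.55 in Post (adjusted p = 0.0103). Wapl, which releases cohesin from DNA, rose by 0.47 (adjusted p = 0.0154). H2afz, a variant histone, fell by 0.41 (adjusted p = 0.00105). In the kinetochore list 1 of 7 clusters was called (30.2% of all clusters), Cenpa, the histone H3 variant of centromeres, which rose by 0.43 (adjusted p = 0.0376). In Mid minus Pre of the second experiment 0 of the 15 and 0 of the 7 clusters were called, against 9.74% of all clusters. Hmgb2 was at 7.09 TPM in Pre and 12.7 TPM in Mid there, with 24.2 TPM in Mid 11 and at most 11 TPM in the other Mid libraries. H2afz was at 51.1 TPM in Pre and 49.1 TPM in Mid.

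In HiT, given as description only, of the 63 clusters 10 had every HiT library above every Mid library and 0 the reverse, against 3.65% and 2.75% of all clusters, with a median log2 difference of 0.172 against -0.0176 over all clusters. Against Pre it was 9 higher and 5 lower, against Fed 9 and 4, against Post 11 and 2 and against Dep 11 and 1. Over all clusters the shares higher were 3.88%, 3.93%, 4.34% and 4.23% in that order. The shares lower are not given here, so these lower counts have nothing to be set against. Of these 63 clusters, Cdc20, Cenpa, Cks1b, Cks2 and Spc24 reached 10 TPM in HiT libraries alone (5 of 63, against 2.4% of all clusters), so they too had to be high in HiT to be listed, and the counts and medians carry that choice. By list the median was 0.721 for cyclins and CDKs, 0.906 for kinetochore genes, 0.257 for replication genes, 0.0963 for chromosome genes, 0.131 for CDK inhibitors and -0.115 for E2F and RB regulators. Besides Birc5 and Ccna2, 6 clusters were higher in every HiT library than in the other 24 of the first experiment, as were 1.43% of all clusters. They are named for this reason, after their values were seen: Cks2 and Cks1b, the small subunits of cyclin-dependent kinases; Mcm6, of the replicative helicase; Cdc20, the mitotic activator of the anaphase-promoting complex; Ube2c, its ubiquitin-conjugating enzyme; and Cenpa. Cdc20 was at 5.47 to 17.9 TPM in HiT and at most 2.03 TPM elsewhere in the first experiment. Ube2c was at 6.52 to 23.9 against 4.92 TPM, Cks2 at 2.54 to 10.96 against 1.73 TPM, and Mcm6 at 13.99 to 28.7 against 11.7 TPM. Also named after its values were seen, H2afx, a histone variant of the DNA damage response, was at 21.7 to 65.0 TPM in HiT and reached 31.8 TPM in Dep 1.

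**Figure D5:**
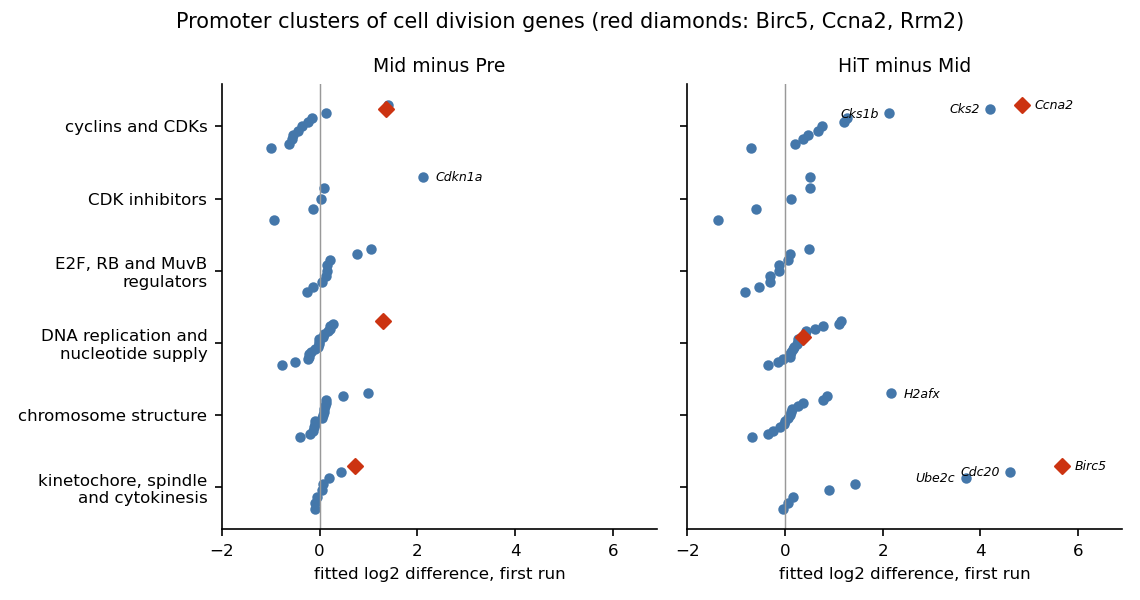
Fitted log2 difference in the first experiment for 66 clusters of cell division genes, grouped in 6 lists, for Mid minus Pre (left) and HiT minus Mid (right). Each point is 1 cluster, red diamonds are Birc5, Ccna2 and Rrm2, and clusters beyond 1.9 in size are named. Cdkn1a leads on the left, and Birc5, Ccna2, Cdc20, Cks2 and Ube2c lead on the right, where Rrm2 is near 0.

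Several of these genes repeated the pattern of Dep 1 and Mid 11. In Dep 1, Cdc20 was at 2.03 TPM against at most 0.659 TPM in the other Dep libraries, Ube2c at 4.92 against 1.21 TPM and Cks2 at 1.73 against 0.804 TPM. In Mid 11, Cdc20 was at 5.49 against at most 1.45 TPM in the other Mid libraries of the second experiment, Ube2c at 16.1 against 2.32 TPM and Cks2 at 6.85 against 0.577 TPM. Dep 1 was the highest Dep library in 20 of the 66 clusters of the lists, 30.3%, against 12.6% of all clusters. Mid 11 was the highest of 5 in 45 of 66, 68.2%, against 31.5% of all clusters. Mid 11 also had the inhibitor Cdkn1c, p57, at 31.95 TPM against at most 9.07 TPM, again chosen after seeing the values.

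The clusters most like these genes over the 28 libraries of the first experiment, by Pearson's r with the mean log2(TPM + 0.1) of the 3 members, were all replication-dependent histone genes, which are transcribed in S phase. They were Hist1h2ao (0.962), Hist1h2ap, Hist1h3c, Hist1h2ab, Hist1h3b, Hist1h2bm, Hist1h3g and Hist1h2ak (0.947). Over the 10 libraries of the second experiment r was 0.793 to 0.987 for these 8. Mid 11 stood far above the rest there, with Hist1h2ao at most 13.8 TPM outside it, and r without Mid 11 was not computed. Hist1h2ao was at 35.9 to 132 TPM in HiT, 45.7 TPM in Dep 1 and 99.7 TPM in Mid 11. It had a median of 5.66 TPM in the other 24 libraries of the first experiment and at most 12.9 TPM there without Dep 1. Without the HiT libraries, an alternative chosen after seeing the data, 6 of the 8 most alike were among these histone genes, and the other 2 were Hist1h2af and Slc4a1. Dep 1 stayed in that comparison, and r without Dep 1 was not computed. Histone genes of this cluster are near copies of each other, so the assignment of their tags is uncertain. For Rrm2 alone, a likeness added after seeing the values, the first cluster was Hmgb2 (0.886), which was at 16.2 to 36.9 TPM in HiT and rose in Mid as given above. None of the 8 clusters most like Rrm2 was a histone gene of that kind. They included Hspb1 and its pseudogene Hsp25-ps1, Acot1, Mt2 and Tuba1c.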

How the data were processed

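Tag counts and TPM of 10819 promoter clusters in 38 soleus libraries were used. The authors aligned nAnT-iCAGE reads to mm10 (GRCm38) with BWA and HISAT2, per their processing notes, and the versions are not given in the sources used here. The deposited counts are whole tags per cluster, and the deposited TPM are tags scaled by the authors to a fixed total of mapped tags. Clusters were assigned here to GENCODE vM21 5′ ends within 500 bp on the same strand. The members, the gene and marker lists and the tests were chosen with earlier results of these data known.

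The counts of each experiment were fitted separately, the first with 28 libraries and 10776 clusters that had any tag and the second with 10 libraries and 10816 clusters, by the edgeR (4.0.16, R 4.3.3) quasi-likelihood test with TMM scaling and Benjamini-Hochberg adjustment over all clusters at 0.05. Comparisons with HiT were not tested. The fit was tested on simulated data. Levels and non-overlap of groups were read from TPM, and likeness and correlations from log2(TPM + 0.1). From each of the 6 lists the text drew on the 3 genes with the highest mean TPM and the 2 clusters with the lowest p in each of Mid minus Pre and Post minus Mid of the first experiment, and on the 8 clusters most like the members; others are said to be named after their values were seen. Of the marker lists the most abundant genes and those without a cluster were eligible. Alternatives were the likelihood ratio test, DESeq2 (1.42.0), other scalings and filters, only the compared groups, all libraries together, the lane, a replicate block and leaving out each library. Each library is from 1 mouse, counting intervals are exact at 95%, and both intervals and limits for a count of 0 cover counting error only.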

Additional observations from a re-analysis of the deposited data

Results flagged for a closer look

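Within groups of 4 to 10 libraries, 4 of 21 sets of levels held a library whose gap to the others passed Dixon's 95% critical value, which chance alone passes in about 1 of 20 groups. In Dep 1 Birc5 was at 1.86 TPM against 0.11 to 0.154 TPM in the other Dep libraries, and Ccna2 was at 1.56 TPM against 0.0731 to 0.124 TPM. In Mid 11 of the second experiment Birc5 was at 5.13 TPM against 0.046 to 0.868 TPM in the other Mid libraries, and Ccna2 was at 4.14 TPM against 0.046 to 0.675 TPM. By pooled counts, Dep 1 stood 14.4 times above the other Dep libraries in Birc5 (95% exact counting interval 7.3 to 31.7), 17.3 times in Ccna2 (7.77 to 45.4) and 1.68 times in Rrm2 (1.4 to 2.01). Mid 11 stood 12.7 times above the other Mid libraries in Birc5 (7.9 to 21.1), 16.4 times in Ccna2 (9.16 to 31.1) and 2.35 times in Rrm2 (1.94 to 2.84).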

How the results depend on the processing

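The number of the 3 genes called moved in these cases. Post minus Mid went from 1 in the first experiment to 3 in a fit of all 38 libraries with a term for the experiment (Birc5 -2.36, adjusted p = 0.0198, and Ccna2 -2.79, adjusted p = 0.0112, edgeR). That fit pooled the Mid and Post libraries of both experiments, Mid 11 included, so it is not a result of the first experiment alone. Fed minus Mid went from 1 to 2 with only the compared groups. Dep minus Mid went from 0 to 1 with the likelihood ratio test and with DESeq2, and lay between 0 and 1 with each library left out. In the second experiment Mid minus Pre went from 1 to 0 with only the compared groups and with the lane as a term, and lay between 0 and 1 with each library left out. Post minus Mid there went from 0 to 2 with the likelihood ratio test and with DESeq2, and lay between 0 and 2 with each library left out. With each library left out in turn, Birc5 lay at -0.59 to 0.41 in Post minus Pre (above 0 without Pre 1) and at -0.16 to 2.33 in Dep minus Mid (below 0 without Dep 1). Ccna2 lay at -0.96 to 0.0623 in Post minus Pre (above 0 without Pre 4), at -0.12 to 0.87 in Fed minus Mid (below 0 without Fed 2), at -1.31 to 1.51 in Dep minus Mid (below 0 without Dep 1) and at -0.54 to 1.96 in Mid minus Pre of the second experiment (below 0 without Mid 11). The cause was not tested.

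With the replicate number as a block in the first experiment, the Rrm2 difference was 1.31 in Mid minus Pre (adjusted p = 0.0024) and -0.92 in Post minus Mid (adjusted p = 0.018), and the count of the 3 genes called was the same in all 6 comparisons. The numbers did not pair the libraries (60 same-numbered pairs, r from -0.413 to 0.501). No paired analysis was possible in the second experiment because its Mid libraries share no number with Pre or Post.

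Over all clusters, scaling by library size without TMM gave 1458 calls in Mid minus Pre (534 higher, 924 lower) against 3253 (1659, 1594), 1630 in Post minus Mid against 3771, 2181 in Fed minus Mid (1672, 509) against 3797 (2009, 1788), 21 in Post minus Pre against 199, 9 in Dep minus Mid (7, 2) against 219 (125, 94) and 6 in Fed minus Pre (2, 4) against 1207 (634, 573). Post minus Mid of the second experiment split 1105 higher to 671 lower against 836 to 936. The median over all clusters was 0.117 in Fed minus Mid, -0.113 in HiT minus Mid, -0.133 in HiT minus Pre and -0.209 in HiT minus Fed under that scaling. Upper-quartile scaling split Mid minus Pre 1282 to 2308, Post minus Mid 2535 to 1471 (against 1881 to 1890), Fed minus Mid 2409 to 1395 and Post minus Mid of the second experiment 1090 to 779. Dep minus Mid had 343 calls with the likelihood ratio test, 479 with DESeq2, 407 with the replicate block and 2 with only the compared groups (2, 0). Post minus Pre had 310 with DESeq2 and 731 with all 38 libraries, where both experiments were pooled. It had 185 higher to 90 lower (against 113 to 86) with only the compared groups, which gave 631 in Fed minus Pre (413, 218). With the lane as a term, Post minus Mid of the second experiment had 485 (148, 337) against 1772.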
